A study of Mus musculus with 237 samples.

Results

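The genes described here are 10 regulators and markers of epithelial-mesenchymal transition (EMT): the intermediate filament gene Vim, the transcription factors Zeb1, Zeb2, Snai1, Snai2, Twist1, Twist2 and Prrx1, and the splicing regulators Esrp1 and Esrp2. They were chosen by symbol, and all 10 were found among the 55335 genes of the count table. Their levels were compared between fetal skin cells with a mesenchymal, a simple-epithelial or a basal-epidermal pattern of collagen and keratin RNA. The question was whether cells with simple keratins keep Esrp1 and Esrp2, and whether they carry Vim or any of the EMT factors.

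EMT is the change by which an epithelial cell gives up its junctions and takes on mesenchymal traits. ZEB, SNAIL and TWIST proteins are transcription factors known to drive it, in part by binding E-box motifs in epithelial genes such as Cdh1, while PRRX1 is a homeobox factor of mesenchyme. ESRP1 and ESRP2 are RNA-binding proteins that keep epithelial splice forms of genes such as Fgfr2 and Cd44, and Vim codes for vimentin, the filament of mesenchymal cells. In embryonic skin the surface ectoderm is a simple epithelium with KRT8 and KRT18, and p63, coded by Trp63, is the transcription factor needed for it to become a stratified epidermis with KRT5 and KRT14.

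Single cells were sorted from the skin of C57BL/6N mouse embryos at embryonic day E14.5, carried by ICR surrogate mothers, and 237 cells have a column in the table. The labels name 66 wild-type (WT) cells of 3 embryos and 171 p63 knockout cells of 7 embryos, in which Trp63 had been mutated in the zygote by Cas9 with a single guide on exon 5. The WT labels are 45 basal layer, 8 intermediate layer, 8 K17 high, 2 Vim high, 1 high in K8 and K20, 1 unknown and 1 omitted cell. The knockout labels are 70 mutant fibroblasts, 50 cells of the surface ectoderm remnant, 28 K5 K14high cells, 12 unknown, 10 omitted and 1 neural progenitor. All 70 mutant fibroblasts are of 1 knockout embryo, so among the labels fibroblast identity cannot be told apart from that embryo. WT epidermis was separated with dispase and then digested with trypsin, whereas knockout fetuses were digested whole, and cells were sorted as negative for CD45, TER119 and CD140a (PDGFRA), so preparation and genotype cannot be told apart. Per the study's methods, amplified cDNA was also screened by qPCR before sequencing, WT cells being kept for Krt5 signal and knockout cells for Krt8 signal, with little amplification of Pdgfra. Keratins that define the states below had thus helped to choose the cells that were screened. The labels do not say which cells were screened, and 70 of the knockout cells are labelled mutant fibroblasts.

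The columns are named by sequencing run, and the part of the run-to-cell sheet used here pairs 16 of the 237 with a label, all of them WT cells of 1 embryo; the rest of that sheet was not used here. The other 221 were therefore placed by their own RNA, and nothing below says which of them are knockout. Values are CPM, the count of a gene per 1000000 counts of the cell. Collagen cells (Col1a1 and Col3a1 at 100 CPM or more) numbered 79, simple-keratin cells (Krt8 and Krt18 at 100 CPM or more, Krt5 and Krt14 under 100) 66, and basal-keratin cells (Krt5 and Krt14 at 300 CPM or more, Krt8 under 100) 54. A further 39 met none of these rules, and 1 cell was both a collagen and a simple-keratin cell and counts in both. Of the 16 labelled cells, 15 fell among the basal-keratin cells and 1 had no state. Total counts ran from 2701500 to 19197138 per cell and detected genes from 6951 to 13204. Since the embryo of 221 columns is not known here, the states cannot be compared over embryos and there is no test between them; intervals are exact 95% intervals for counting error only, and copies made by PCR cannot be told from separate molecules here.

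Markers of other cell types were also counted in the keratin states. Col3a1 reached 10 CPM in 36 of 66 simple-keratin and 4 of 54 basal-keratin cells, Col1a1 in 5 and 0, and Pdgfra in 0 and 1. Of the 6 fibroblast markers at 1 CPM or more in either sum, 4 were 4-fold or more higher in simple-keratin than basal-keratin cells and 0 lower. Over all genes 5.96% were higher and 3.36% lower. The 4 were Col1a1 (9.24 against 0.05 CPM), Col3a1 (413 against 5.50), Col1a2 (65.99 against 7.91) and Lum (43.8 against 0.74). Col1a1 reached 100 CPM in 1 simple-keratin cell, at 540 CPM, and that cell also met the collagen rule. The Col1a1 ratio was not recomputed without that cell. The sum of the 7 fibroblast markers had a median of 976 CPM in simple-keratin cells against 994 in basal-keratin cells and 71579 in collagen cells. Within that list, Dcn and Postn had medians of 369 and 108 CPM in simple-keratin and 483 and 515 CPM in basal-keratin cells. Hemoglobin took 72.5% of the counts of 1 simple-keratin cell and at most 0.34% of any other in that state, and results that rest on that cell are given without it. Trp63 was at 10 CPM or more in 49 of 66 simple-keratin, 54 of 54 basal-keratin and 2 of 79 collagen cells, which checks no label, because a small mutation in an exon can leave the RNA in place. Pdgfra was at 10 CPM or more in 66 of 79 collagen cells although the sort had excluded CD140a and the qPCR screen had aimed to leave out Pdgfra. The sum of Krt8, Krt18, Krt19 and Krt7 had a median of 0 CPM in collagen cells, and whether these cells went through the screen is not given in the labels.

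The promoters of Epcam, Snai1 and Vim are shown because they carry, or lack, the E-box letters CAGGTG or CACCTG (the same 6 letters on either strand) that SNAIL and ZEB proteins are known to bind. They are the 250 bases before the RefSeq start on GRCm38.p6, in lower case with each E-box in capitals. The table has an entry for Vim, Zeb2, Snai1, Twist1, Twist2 and Prrx1, 6 of the 10 genes, and for the epithelial adhesion gene Epcam; Esrp1, Esrp2, Snai2, Zeb1 and Cdh1 are named only.
Epcam, chr17:87635729-87635978, plus strand: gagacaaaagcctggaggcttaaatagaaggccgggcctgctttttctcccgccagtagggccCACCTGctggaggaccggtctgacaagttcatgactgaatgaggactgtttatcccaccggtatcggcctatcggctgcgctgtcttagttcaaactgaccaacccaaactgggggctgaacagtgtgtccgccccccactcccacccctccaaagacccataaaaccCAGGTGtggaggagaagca
Snai1, chr2:167537945-167538194, plus strand: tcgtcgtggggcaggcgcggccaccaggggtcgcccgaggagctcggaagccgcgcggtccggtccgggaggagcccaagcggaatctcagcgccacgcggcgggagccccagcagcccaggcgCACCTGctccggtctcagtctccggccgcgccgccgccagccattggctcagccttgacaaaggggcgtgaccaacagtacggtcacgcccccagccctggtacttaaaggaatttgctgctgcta
Vim, chr2:13574061-13574310, plus strand: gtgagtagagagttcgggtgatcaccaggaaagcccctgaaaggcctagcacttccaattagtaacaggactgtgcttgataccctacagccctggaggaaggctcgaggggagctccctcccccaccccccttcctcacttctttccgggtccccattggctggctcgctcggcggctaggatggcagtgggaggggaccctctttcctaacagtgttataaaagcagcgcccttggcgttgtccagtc
Epcam held 2 E-boxes, 187 and 19 bases before its start, and Snai1 held 1, 126 bases before its start. The windows of Vim, Zeb2, Twist1, Twist2 and Prrx1 held 0. Over all 32851 promoters of the table, 17.2% held at least 1, so these matches describe the letters and no more.

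Esrp1 and Esrp2 were present in nearly all cells of both keratin states and at 10 CPM or more in 0 of the 79 collagen cells. At least 1 of the pair was at 10 CPM or more in 64 of 66 simple-keratin cells (interval of the share 89.5% to 99.6%), and in 54 of 54 basal-keratin cells (93.4% to 100%). Both were at that level in 57 simple-keratin and 45 basal-keratin cells. Esrp1 (chr4:11331933-11386783 on GRCm38, minus strand) ran from 0.24 to 644 CPM in simple-keratin cells, with a median of 95.7, from 0.18 to 453 with a median of 77.3 in basal-keratin cells, and from 0 to 0.56 with a median of 0 in collagen cells. Esrp2 (chr8:106130319-106136974, minus strand) ran from 0.85 to 2257 CPM with a median of 308 in simple-keratin cells, from 0.35 to 1069 with a median of 109.8 in basal-keratin cells, and from 0 to 7.92 with a median of 0.47 in collagen cells. Collagen cells thus lay low for both genes, and the keratin states overlapped over most of their range.

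In the summed counts Esrp2 was at 437 CPM (435 to 439) in simple-keratin cells, 172 (171 to 174) in basal-keratin cells and 1.06 (0.97 to 1.15) in collagen cells. Esrp1 was at 122 (121 to 123), 87.4 (86.5 to 88.2) and 0.01 CPM in the same order. On the log2 scale, with 1 CPM added to each side, simple-keratin cells were 1.34 above basal-keratin cells for Esrp2 and 0.48 above for Esrp1, and the ratio of collagen to basal-keratin cells was -6.40 for Esrp2 and -6.45 for Esrp1. Esrp2 stood above Esrp1 in CPM in 56 of 66 simple-keratin and 37 of 54 basal-keratin cells. Per kilobase of exon, where different genes can be compared, the summed level of Esrp2 was 100.7 CPM against 19.4 for Esrp1 in simple-keratin cells and 39.7 against 13.9 in basal-keratin cells. Exons of Esrp2 share 219 bases with Nfatc3 and 119 with 1810019D21Rik on the other strand, and whether counting used the strand is not given in the sources used here; 1810019D21Rik stood at 76.6 CPM in simple-keratin and 12.6 CPM in basal-keratin cells.

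The 2 simple-keratin cells with neither Esrp gene at 10 CPM were both unusual in other RNA. One was the cell with 72.5% hemoglobin, in which Krt8 stood at 1571 CPM, Esrp1 at 0.46, Esrp2 at 1.5 and Epcam at 3.65 CPM, and Vim was at 0. The other was the cell that also met the collagen rule, with Col3a1 at 3542 CPM, Krt8 at 169, Esrp1 at 0.56, Esrp2 at 0.98 and Vim at 126. Without the hemoglobin cell the share with Esrp1 or Esrp2 was 64 of 65, and without the collagen cell it was also 64 of 65. Cdh1, which codes for the junction protein E-cadherin, was at 10 CPM or more in 60 of 66 simple-keratin cells and Epcam in 64.

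**Figure D1:**
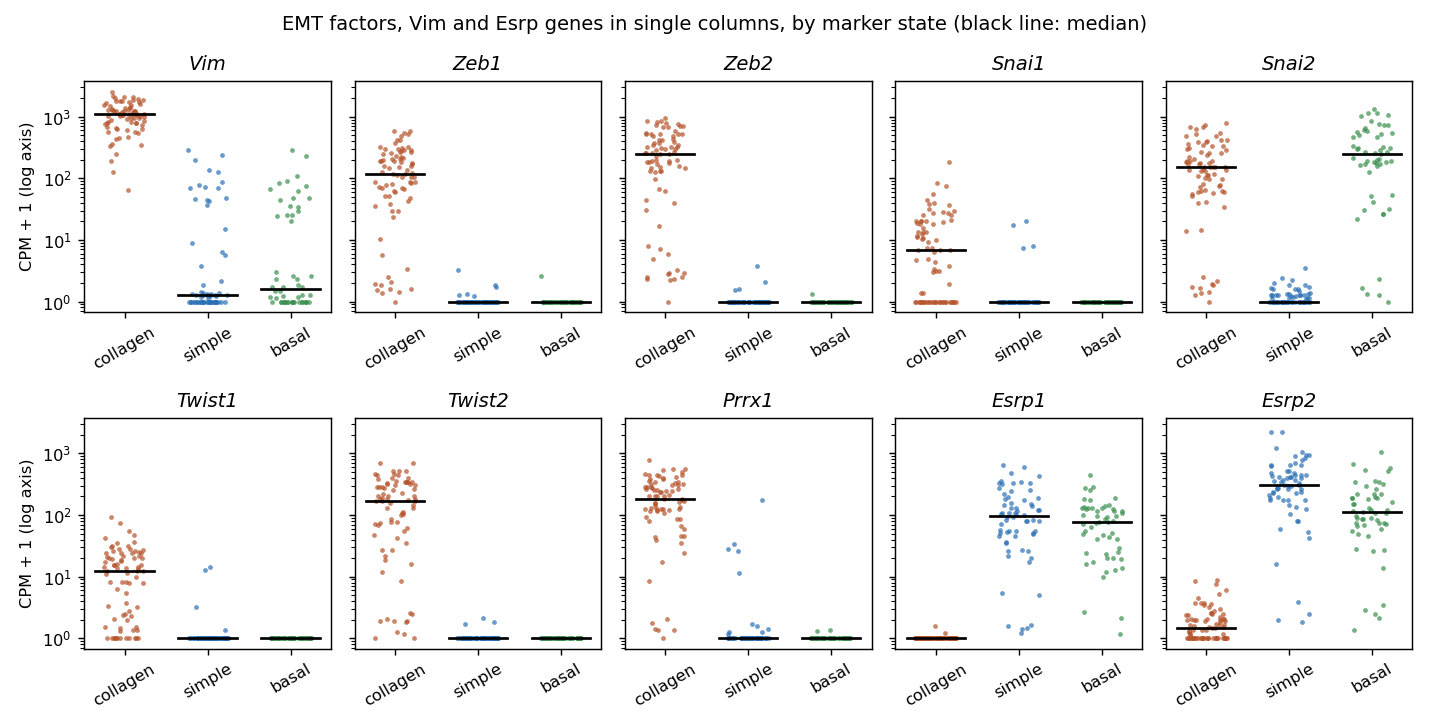
CPM + 1 of each of the 10 genes (log axis) in the 79 collagen, 66 simple-keratin and 54 basal-keratin cells, 1 point per cell with the median as a black line; the cell in 2 states is drawn in both. Collagen cells are high for Vim and the Zeb, Twist2 and Prrx1 factors and low for both Esrp genes, and Snai2 is high in collagen and basal-keratin cells but at most 2.51 CPM in simple-keratin cells.

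Vim (chr2:13573927-13582826, plus strand) was high in every collagen cell and scattered in the keratin states. It ran from 64.4 to 2565 CPM with a median of 1089 in collagen cells, from 0 to 292 with a median of 0.26 in simple-keratin cells, and from 0 to 284 with a median of 0.61 in basal-keratin cells. It reached 10 CPM in 79 of 79 collagen cells, in 16 of 66 simple-keratin cells (24.2%, 14.54% to 36.4%) and in 18 of 54 basal-keratin cells (33.3%, 21.1% to 47.5%), so the intervals of the keratin states overlapped. At 100 CPM these counts were 78, 5 and 3. The summed level was 22.4 CPM (22.02 to 22.80) in simple-keratin and 21.8 (21.4 to 22.3) in basal-keratin cells, a log2 ratio of 0.04, against 1111 (1108 to 1114) in collagen cells. Under other settings that first ratio lay between -0.36 and 0.32, so its sign was not stable.

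Nearly all cells of the keratin states had Esrp RNA, with Vim or without, so these shares left little room to differ. Of the 16 simple-keratin cells with Vim at 10 CPM or more, 15 had Esrp1 or Esrp2 at 10 CPM or more, and the same 15 had Cdh1 and Epcam at that level; the other was the cell in the collagen state. Among the 50 simple-keratin cells with Vim under 10 CPM, 49 had an Esrp gene at 10 CPM or more. In the simple-keratin cell with the highest Vim, at 292 CPM, Esrp1 was at 356, Esrp2 at 101.7, Cdh1 at 572, Epcam at 1826 and Col3a1 at 1537 CPM. The next cell had Vim at 234 CPM with Esrp1 at 44.5, Esrp2 at 226 and Epcam at 1990.5 CPM, and its Col3a1 was at 0. All 18 basal-keratin cells with Vim had an Esrp gene and Cdh1 at 10 CPM or more, and all 36 without Vim had an Esrp gene. Col3a1 was at 10 CPM or more in 11 of the 16 simple-keratin cells with Vim and in 25 of the 50 without, Col1a1 in 2 of the 16, and the part of collagen-bearing RNA in the Vim counts was not tested. Among the 29 simple-keratin cells with both collagens under 10 CPM, Vim was carried by 5.

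**Figure D2:**
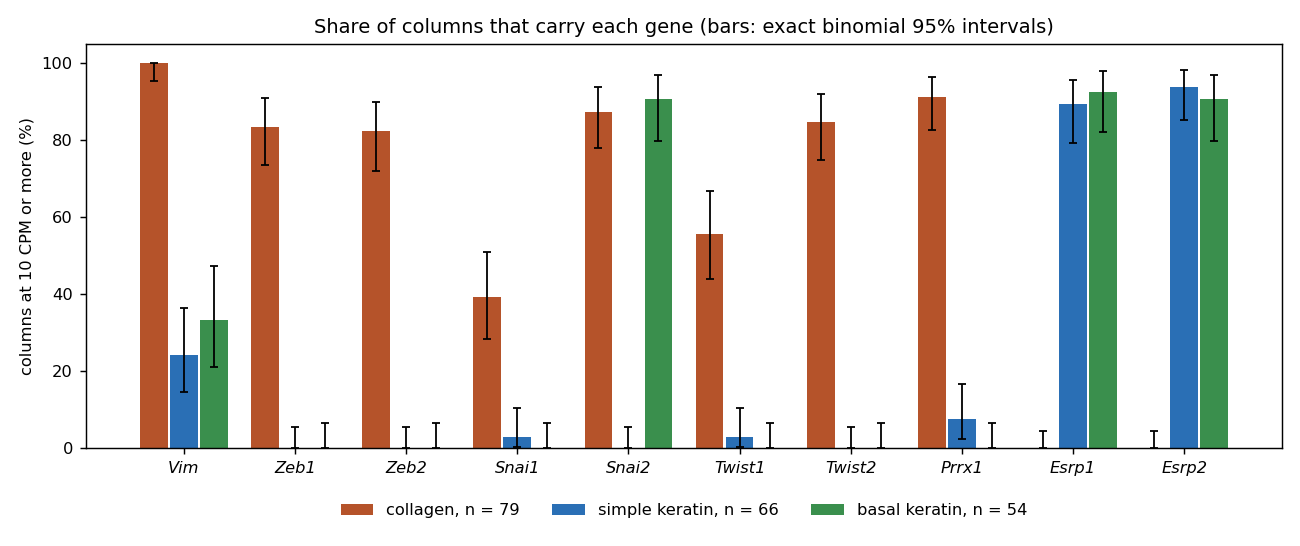
Share of cells, in percent, with each gene at 10 CPM or more in the 79 collagen, 66 simple-keratin and 54 basal-keratin cells; error bars are exact binomial 95% intervals. Vim is carried by 24.2% of simple-keratin and 33.3% of basal-keratin cells with overlapping intervals, whereas Snai2 is carried by 90.7% of basal-keratin and 0% of simple-keratin cells.

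Zeb1 and Zeb2, zinc finger and homeobox repressors of epithelial genes, were found in collagen cells and not at 10 CPM in any keratin-state cell. Zeb1 (chr18:5591860-5775467, plus strand) had a median of 118 CPM and a range of 0 to 592 in collagen cells, where 66 of 79 carried it at 10 CPM or more. Zeb2 (chr2:44983632-45117395, minus strand) had a median of 250.3 CPM and a range of 0 to 943, and 65 of 79 carried it. Taking either gene, 78 of 79 collagen cells qualified, the exception being the cell that was also in the simple-keratin state. In simple-keratin cells the highest values were 2.28 CPM for Zeb1 and 2.72 for Zeb2, and 0 of 66 reached 10 CPM, which allows a share of up to 5.44%. In basal-keratin cells the highest were 1.61 and 0.34 CPM, and 0 of 54 reached 10 CPM, which allows up to 6.60%. Summed Zeb1 was 157 CPM in collagen, 0.04 in simple-keratin and 0.05 in basal-keratin cells. Zeb2os, on the other strand of Zeb2, stood at 5.41 CPM in collagen cells and 0 in both keratin states.

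Snai2, the SNAIL factor also called Slug, split the keratin states. In basal-keratin cells Snai2 (chr16:14705852-14709385, plus strand) ran from 0 to 1331 CPM with a median of 252, in collagen cells from 0 to 788 with a median of 149, and in simple-keratin cells from 0 to 2.51 with a median of 0. It was at 10 CPM or more in 49 of 54 basal-keratin cells (90.7%, 79.7% to 96.9%), in 69 of 79 collagen cells (87.3%, 77.95% to 93.8%) and in 0 of 66 simple-keratin cells. The summed level was 333 CPM (332 to 335) in basal-keratin, 193 (192 to 194) in collagen and 0.23 (0.19 to 0.27) in simple-keratin cells. The log2 ratio of simple-keratin to basal-keratin cells was -8.09 and stayed between -9.98 and -7.86 under other settings.

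The Snai2 of basal-keratin cells came without the other EMT factors. All 49 basal-keratin cells with Snai2 had Esrp1 or Esrp2 and Trp63 at 10 CPM or more, as did all 54 cells of that state. Of the 49, 33 had Vim under 10 CPM, and 0 of 54 had any of Zeb1, Zeb2, Snai1, Twist1, Twist2 or Prrx1 at 10 CPM. All 79 collagen cells had Vim at 10 CPM or more and 0 had an Esrp gene at that level, so the 69 with Snai2 could not differ in this. In the 5 basal-keratin cells with Snai2 under 10 CPM it lay between 0 and 1.32, Esrp2 between 217 and 671, and Trp63 between 186 and 1176 CPM; Vim was at 226 and 74.1 CPM in 2 of them and at most 2.03 in the others.

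Snai1 (chr2:167538195-167542814, plus strand), the founding SNAIL factor, was low where it was found. Its median was 5.76 CPM in collagen cells, with a range of 0 to 181, and 31 of 79 reached 10 CPM (39.2%, 28.4% to 50.9%). In simple-keratin cells 2 of 66 reached 10 CPM, at 19.1 and 16.4, the first of them the cell in the collagen state. In basal-keratin cells there was no read in the 54 cells, so the summed level in collagen cells, 14.3 CPM, was at least 2202-fold higher than the 3 counts over that group taken as its limit.

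Twist1 (chr12:33957671-33959829, plus strand) and Twist2 (chr1:91801461-91848028, plus strand), basic helix-loop-helix factors of mesenchyme, were both found in collagen cells at different levels. Twist1 had a median of 11.4 CPM and a range of 0 to 91.2 in collagen cells, and 44 of 79 reached 10 CPM. Twist2 had a median of 169.9 and a range of 0 to 696, and 67 of 79 reached 10 CPM. Neither had a read in any of the 54 basal-keratin cells, so collagen cells were at least 2380-fold higher for Twist1 and at least 30146-fold higher for Twist2, taken against 3 counts over the group. In simple-keratin cells Twist1 reached 10 CPM in 2 of 66, at 13.2 and 11.7, and Twist2 at most 1.14. Exons of Twist2 share 1477 bases with Gm29100 on the other strand, which stood at 101.4 CPM in collagen cells, so reads of this pair cannot be told apart without strand.

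Prrx1 (chr1:163245119-163313710, minus strand) was found in most collagen cells. It ran from 0 to 794 CPM there with a median of 183, and 72 of 79 cells reached 10 CPM (91.1%, 82.6% to 96.4%). In basal-keratin cells it was at most 0.34 CPM. In simple-keratin cells the median was 0, but 5 of 66 reached 10 CPM, at 177, 32.2, 26.9, 25.3 and 10.4. All 5 had an Esrp gene at 10 CPM or more and none had Vim or Col1a1 at that level, while Col3a1 was at 10 CPM or more in 4 of them, between 104 and 3742 CPM. The cell at 177 CPM held 61.4% of the Prrx1 counts of the state, with Esrp1 at 83.5, Esrp2 at 265, Epcam at 1386 and Col3a1 at 0.58 CPM. The summed level was 3.51 CPM in simple-keratin and 0.01 in basal-keratin cells, a log2 ratio of 2.16 with 1 CPM added, and 1.24 without the highest cell of each state.

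Any of the 7 factors was at 10 CPM or more in 7 of 66 simple-keratin cells, which is 10.6% (4.37% to 20.6%), namely the 5 with Prrx1, 1 with Snai1 and the cell in the collagen state. Of these 7, 6 had Col3a1 at 10 CPM or more, and among the 29 simple-keratin cells with both collagens under 10 CPM, 1 carried a factor. In 6 of the 7 an Esrp gene was at 10 CPM or more, and in 1 of the 7 Vim was. The count was 15 of 66 at 1 CPM and 1 of 66 at 100 CPM, so it depends on the level taken as carried. In collagen cells 79 of 79 had a factor at 10 CPM or more and 38 had all of Zeb1, Zeb2, Snai2, Twist2 and Prrx1.

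Between simple-keratin and basal-keratin cells, 5 of the 10 genes reached 1 CPM in either sum, and 1 of these was 4-fold or more higher (Prrx1) and 1 lower (Snai2), where over 16673 genes 5.96% were higher and 3.36% lower. Between collagen and basal-keratin cells all 10 reached 1 CPM, 7 were 4-fold or more higher and both Esrp genes lower, with Snai2 at a log2 ratio of -0.78; over 16850 genes 9% were higher and 5.5% lower. Between collagen and simple-keratin cells 8 were higher and both Esrp genes lower, where over 17259 genes 8.11% were higher and 8.41% lower. The comparisons share cells, and collagens and keratins fixed the states, so these counts describe how the 10 genes lie across the states.

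**Figure D3:**
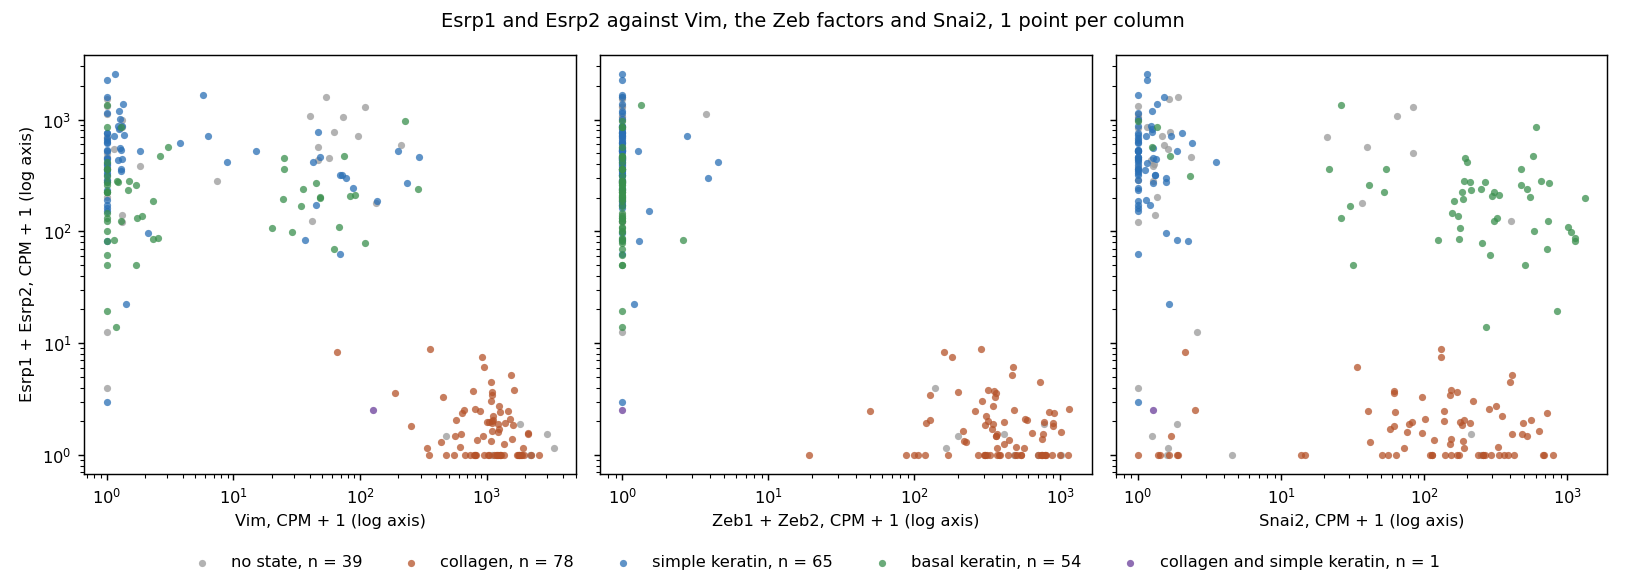
Sum of Esrp1 and Esrp2 against Vim, against the sum of Zeb1 and Zeb2, and against Snai2, each as CPM + 1 on log axes, 1 point for each of the 237 cells, coloured by state. In the Zeb panel, cells with Zeb RNA at 10 CPM or more all lie at the bottom right. In the other panels, Vim up to 292 CPM lies beside Esrp RNA in both keratin states, and Snai2 lies beside Esrp RNA in basal-keratin cells.

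Over all 237 cells, 86 had Zeb1 or Zeb2 at 10 CPM or more and 148 had Esrp1 or Esrp2, and no cell had both. At the same 10 CPM, 45 of the 131 cells with Vim and 56 of the 127 cells with Snai2 had an Esrp gene too. Pearson correlations of log2(CPM + 1) over the 237 cells were 0.84 between Esrp1 and Esrp2, -0.78 between Esrp1 and Zeb1, -0.79 between Esrp1 and Zeb2, -0.73 between Esrp1 and Vim and -0.42 between Esrp1 and Snai2. Among the factors, Snai2 had the lowest correlations with the others, 0.42 with Zeb2 and 0.32 with Snai1, against 0.90 between Twist2 and Prrx1. These values describe a mixture of cell types that differ in most of these genes at once.

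Only some of the 39 cells outside the states are described here. Of the 39, 18 had Krt8 and Krt18 at 100 CPM or more together with Krt5 or Krt14 at 100 CPM or more, and in these Esrp1 or Esrp2 was at 10 CPM or more in 18, Vim in 5, Snai2 in 1 and Zeb1 or Zeb2 in 0. In the 3 of these with both Krt5 and Krt14 at 100 CPM or more, Snai2 was at 35.8, 0.36 and 0.28 CPM. The 7 cells with the highest Vim, from 477 to 3363 CPM, all lacked Esrp RNA, with Esrp1 and Esrp2 at most 0.89 CPM. The highest 2 of them, at 3363 and 3002 CPM, had Cdh1 at 1257 and 825, Zeb2 at 164 and 413, Zeb1 at 0 and Epcam at 1.86 and 2.28 CPM, together with the pigment cell genes Pmel (2490 and 8134 CPM) and Dct (2218 and 2050.5 CPM). In both, Cdh1 thus stood beside Zeb2 and Vim, and the neural crest and glial factor Sox10 was at 616 and 818 CPM. A further 3, with Vim at 2224, 2190 and 1808 CPM and Zeb2 at 699, 904 and 756, also carried Sox10 (621, 905 and 283 CPM). Their Col1a1 lay between 53.3 and 97.3 CPM, below the 100 CPM of the collagen rule. In the cell with Vim at 477 CPM, Zeb1 was at 199, Prrx1 at 231 and the muscle regulator Myog at 5286 CPM. Zeb1 was at 139 CPM in 1 other cell, with Vim at 0, Esrp1 at 2.25 and Esrp2 at 0.75 CPM. Among the 237 labels 2 are Vim high, both WT, and no column was paired with them.

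The 16 labelled cells of embryo WT01 gave the 4 expressed genes by layer, and their total counts lay between 6345186 and 9001846. Zeb1, Zeb2, Snai1, Twist1, Twist2 and Prrx1 had 0 counts in all 16. Snai2 lay between 173 and 1133 CPM in 10 of the 11 basal layer cells and at 0.25 in the other (cell 2), with a median of 474. The 4 cells labelled K17 high, whose Krt17 lay between 1715 and 3902 CPM against 4.37 to 613 in the basal layer, had Snai2 at 335, 29.4, 0.67 and 520.2 CPM, and the intermediate layer cell had 38.6. The groups overlapped. Basal layer cell 2 was also the lowest for Krt5, at 491 CPM, and the highest for Krt17 and Krt18 of its group, at 613 and 123 CPM.

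Vim was at 33.1, 74.1, 90.4 and 284 CPM in the K17 high cells and at 45.1 in the intermediate layer cell. In the basal layer it was at 82.8 CPM in 1 cell and between 0 and 2.03 in the other 10, so all but 1 lay below every K17 high cell. Col1a2 was at 30.04, 36.2 and 58.6 CPM in 3 of the 4 K17 high cells and 0 in the other, against 19.9 in 1 basal layer cell and 0 in the other 10. Col3a1 was 0 in the K17 high cells and 88.4 CPM in the basal layer cell with Vim at 82.8. It was 47.7 CPM in the basal layer cell with Col1a2 at 19.9, where Vim was 0, and 0 in the remaining basal layer cells. The part of collagen-bearing RNA in these Vim counts was not tested. Esrp1 lay between 78.5 and 257 CPM in K17 high cells and between 8.88 and 143 in the basal layer, where all but 1 cell lay below the lowest K17 high cell. The cell at 143 CPM was also the one with Vim at 82.8. Esrp2 lay between 49.03 and 217 CPM in K17 high cells, between 45.01 and 536 in the basal layer and at 499 in the intermediate layer cell, and the groups overlapped. The summed K17 high cells had Vim at 114 CPM, which was 66.4 without the cell at 284, and Snai2 at 199, which was 109.6 without that same cell. All 16 cells come from 1 embryo, so no group is replicated.

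**Figure D4:**
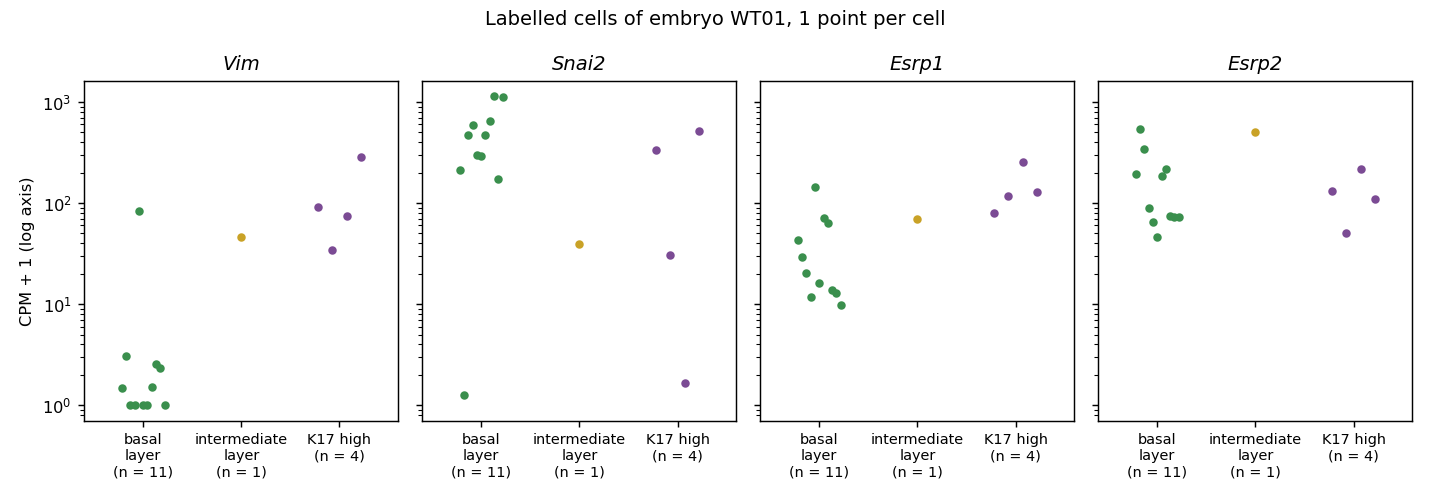
CPM + 1 (log axis) of Vim, Snai2, Esrp1 and Esrp2 in the labelled cells of embryo WT01, 1 point per cell: 11 basal layer, 1 intermediate layer and 4 K17 high. The 4 K17 high cells have Vim between 33.1 and 284 CPM, above 10 of the 11 basal layer cells, while Snai2 overlaps between the groups.

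Related genes were taken as lists, to be read beside the share of all genes that were 4-fold or more apart. Between simple-keratin and basal-keratin cells 5.96% of all genes were higher in simple-keratin cells and 3.36% lower. In collagen cells 9% were higher and 5.5% lower than in basal-keratin cells, and 8.11% higher and 8.41% lower than in simple-keratin cells. Of 8 transcription factors known to oppose EMT, 8 reached 1 CPM between simple-keratin and basal-keratin cells and 1 was 4-fold or more higher in simple-keratin cells (Elf3, an ETS factor of simple epithelia, 81.7 against 0.71 CPM); the list had a median log2 ratio of 1.10, against 0.05 over all genes. In collagen against simple-keratin cells 7 of 8 were lower, among them Grhl2 (0.02 against 99.9 CPM) and Ovol1 (0.03 against 71.03 CPM), and Klf4 was at 32.9 against 18.8 CPM. The median there was -6.23, against -0.21 over all genes. Of 10 junction genes, 6 were 4-fold or more higher in simple-keratin than basal-keratin cells (among them Cldn4, Cldn6, Cldn7, Crb3 and Ocln, with Cldn6 at 640 against 24.6 CPM), 0 were lower, and all 10 were lower in collagen cells than in either. Cdh1 was at 857 CPM in simple-keratin, 403 in basal-keratin and 0.20 in collagen cells.

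Of 10 mesenchymal genes often measured with EMT, 8 reached 1 CPM between simple-keratin and basal-keratin cells. Of these, 3 were 4-fold or more higher in simple-keratin cells (Acta2, Cdh11 and Col1a2) and 3 lower (Fn1, Mmp2 and Tnc), with a median log2 ratio of 0.07. Over all genes 5.96% were higher and 3.36% lower. Acta2, a smooth muscle actin, was at 79.5 against 0.89 CPM, but 91.2% of its simple-keratin counts came from 1 cell. Fn1, which codes for fibronectin, was at 8.97 CPM in simple-keratin, 52.4 in basal-keratin and 1577 in collagen cells. Against basal-keratin cells all 8 were higher in collagen cells. Of 8 further EMT-linked factors 5 reached 1 CPM and 0 were 4-fold apart between the keratin states, and Tcf4 and Prrx2 were higher in collagen cells than in either. In a list of 9 TGF-beta genes, the signal best known to induce EMT, Tgfb2 (66.2 against 8.71 CPM) and its receptor Tgfbr2 (98.4 against 19.7 CPM) were 4-fold or more higher in simple-keratin than basal-keratin cells. Of the 8 genes at 1 CPM or more 0 were lower, where 5.96% of all genes were higher and 3.36% lower. Tgfb2, Tgfbr2 and Tgfb3 were also 4-fold or more higher in collagen than basal-keratin cells. Between collagen and simple-keratin cells Tgfb2 and Tgfbr2 were not 4-fold apart, while Tgfbr3 was higher and Smad3 lower in collagen cells.

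Among 10 other splicing regulators, Rbm47 (88.1 against 19.5 CPM) and Rbpms (132 against 17.6 CPM) were 4-fold or more higher in simple-keratin than basal-keratin cells, where 5.96% of all genes were. Rbm47 was the only one 4-fold apart in collagen cells, lower at 0.20 CPM. Of 8 genes known to be spliced by ESRP proteins, Fgfr2 was at 39.1 CPM in simple-keratin against 854 in basal-keratin cells and 92.4 in collagen cells. Cd44 was at 0.06, 24.1 and 102 CPM in that order. The other 6, such as Ctnnd1 (48.9, 53.7 and 47.5 CPM), were not 4-fold apart in any of the 3 comparisons. Counts per gene hold no splice forms, so the splicing of these genes was not measured. Of 7 other intermediate filament genes, 1 reached 1 CPM in the keratin states, Nes, at 8.52 CPM in simple-keratin, 27.8 in basal-keratin and 88.0 in collagen cells.

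The genes most like 4 of the members over the 237 cells, by Pearson's r of log2(CPM + 1) among 16260 genes, are given here. For Esrp1 they were Epcam (0.87), Pkp3 (0.87), Cdh1 (0.86), Spint2 (0.85) and Esrp2 (0.84), which apart from Esrp2 code for epithelial adhesion or membrane proteins. For Vim they were Pmp22 (0.85), Lama4 (0.83), Col6a2 (0.82), Col6a1 (0.82) and S1pr3 (0.81). Prrx1 was nearest to Cd248 (0.93), Vcam1 (0.93), Gm47302 (0.92), Lrrc17 (0.92) and Col1a1 (0.91), and Twist1 to Pth1r (0.83), Cd248 (0.83), Vcam1 (0.82), Twist2 (0.82) and Gm43109 (0.82). For Snai2, looked up after its values were seen, the nearest genes were Fbln2 (0.72), Fbln1 (0.67) and Megf6 (0.67), and the nearest to Snai1, looked up in the same way, was Cd248 (0.65).

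Per kilobase of exon, summed levels can be ordered within a state. In collagen cells Vim stood highest at 234 CPM per kilobase, then Snai2 at 95.6 and Twist2 at 61.6, with Prrx1 at 19.5, Zeb1 at 15.3, Zeb2 at 14.7, Twist1 at 9.48 and Snai1 at 8.81. In basal-keratin cells Snai2 led at 165, then Esrp2 at 39.7, Esrp1 at 13.9 and Vim at 4.60. In simple-keratin cells the order was Esrp2 at 100.7, Esrp1 at 19.4 and Vim at 4.73, and no EMT factor was above 0.36 CPM per kilobase.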

How the data were processed

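Full-length cDNA of each sorted cell was amplified with SMART-Seq HT and read as 150 bp pairs; the kit adds no molecular identifiers. The authors used HISAT2 (mm10) and featureCounts (Ensembl 97), and the table they deposited holds expected counts, a row for each gene, not scaled; strand and multi-mapping settings are not given in the sources used here. Trimmomatic and DESeq2 1.36.0 are also named in the submitters' processing notes. Of the values above 0, 23.2% carry a fraction and were rounded. All 37 mitochondrial genes had 0 counts. Runs were paired with cells by a supplementary sheet, of which only a part was used here. Exon lengths and positions are of GENCODE release M21 (GRCm38), and 55154 of 55335 gene identifiers matched a symbol.

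CPM used the rounded total of the column. A gene was called carried at 10 CPM and 4-fold apart on log2((CPM + 1)/(CPM + 1)) of summed counts, among genes at 1 CPM or more in either sum. No p-value was computed, because the columns are 1 pooled sample. Shares have exact Clopper-Pearson and sums exact Poisson 95% intervals, and for fold limits a summed count of 0 was given the limit of 3 counts. Named are the 10 genes, the state markers, Cdh1, Epcam, the listed genes and the 5 genes nearest to Vim, Esrp1, Twist1 and Prrx1; genes of single cells outside the states, the overlapping genes and those near Snai2 were named after their values were seen. The 10 genes and all lists were chosen with earlier results of these data known. Values of some single genes of the lists are not reported here. The ratio was tested on simulated Poisson counts that had no spread between cells beyond counting error. That test therefore does not cover genes carried by a few cells. Alternatives were fractional counts, other totals and size factors, other marker and carrying levels, stricter cell filters, thinning, other pseudocounts and leaving out cells. Software was matplotlib 3.10.9, scipy 1.17.1, pandas 2.3.3 and numpy 2.4.6 under Python 3.11.15.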

Additional observations from a re-analysis of the deposited data

How the results depend on the processing

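Of 16 settings, those on carrying levels, thinning and all genes with a count gave no log2 ratio. In the rest, the 21 log2 ratios of 4-fold or more kept their direction in all 252 recomputed values and stayed 4-fold apart in 250. The 2 exceptions were Prrx1 in simple-keratin against basal-keratin cells, at 1.14 with doubled marker levels and 1.24 without the highest cell of each state. This takes that comparison from 2 genes apart to 1 in both settings. Carrying at 100 CPM lowered the shares of simple-keratin cells with Esrp1 or Esrp2 to 89.4%, with Vim to 7.58% and with a factor to 1.52%, and of basal-keratin cells with Snai2 to 75.9%. The factor share was 22.7% at 1 CPM and 3.45% among cells with both collagens under 10 CPM. The other settings left these shares within their intervals. Leaving out each K17 high cell in turn gave 66.4 to 139 CPM for summed Vim and 109.6 to 287 for Snai2, 108 to 177 for Esrp1 and 95.4 to 159 for Esrp2. Size factors moved the median log2 ratio of all genes from 0.05 to 0.27 (simple-keratin against basal-keratin), from -0.21 to 0.21 (collagen against basal-keratin) and from -0.21 to -0.02 (collagen against simple-keratin), and Snai2 in collagen against basal-keratin cells from -0.78 to -0.32. Over all genes, 9.31%, 14.498% and 16.5% were 4-fold apart in these comparisons, against 19.4%, 24.6% and 27.6% with 0.1 CPM added and 5.29%, 8.35% and 9.56% among all genes with a count. The 2 settings chosen after seeing the data left out the hemoglobin cell or the cell in 2 states. No paired analysis was possible because the run columns carry no replicate number and no result comes from a test. No cell was under 1000000 counts or 4000 genes, so that filter removed none and its values, counted above, repeat the main ones. With 1 pooled table, depth limits single genes only near 0, and the spread between embryos is unknown.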
